A study of Mus musculus with 6 samples.

Results

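The data described here are those of 10 genes of systemic and cellular iron handling, measured in primary mouse hepatocytes before and after partial hepatectomy (PHx), an operation that takes away the larger part of the liver so that the remainder regenerates. They were chosen by gene name, and all 10 of the 10 names were found among the 55450 annotated genes. By role, they are the hepcidin hormone genes Hamp and Hamp2, the iron-sensing genes Bmp6, Hfe and Tfr2, the uptake genes Trf and Tfrc, the ferritin genes Fth1 and Ftl1, and the exporter gene Slc40a1. The study profiled bulk RNA-Seq libraries from hepatocytes of undamaged liver (0 h) and of liver 48 h after PHx, with 3 libraries per time point, each from a separate mouse. All 6 mice were male C57BL/6 animals on normal chow, and the labels give an age of 10 to 12 weeks where the study's methods give a slightly younger range and the substrain C57BL/6J. Hepatocytes were obtained by a 2-step collagenase perfusion, and the labels name no transgene or drug. The 0 h livers were not operated on, so effects of surgery and anesthesia and effects of the loss of liver mass cannot be told apart in this comparison.

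Hepatocytes are a main store of iron in the body and set how much iron enters the blood. They secrete hepcidin, a peptide hormone encoded by Hamp in mice, which binds the iron exporter ferroportin (Slc40a1) on gut, macrophage and hepatocyte membranes and causes its degradation. Hepcidin transcription rises with iron through BMP6, made largely by sinusoidal endothelial cells, and through HFE and transferrin receptor 2 on the hepatocyte, and it also rises with inflammation through IL-6 and STAT3. Inside the cell, iron regulatory proteins bind stem-loops called iron-responsive elements. In iron-poor cells this binding blocks translation of ferritin and ferroportin mRNA and protects the mRNA of transferrin receptor 1 (Tfrc) from decay.

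Gene counts summed to between 31419443 and 36346220 per library, and levels are given as CPM (counts per 1e6 gene counts, scaled between libraries). A floor of 3 counts equals 0.0825 to 0.0955 CPM by library before this scaling and covers counting error only. The libraries had the profile of hepatocytes, since 10 hepatocyte markers including Alb, Apob and Cps1 summed to between 109270 and 128837 CPM at 0 h and between 72627 and 88027 CPM at 48 h, with 4 called lower (Alb, Apoa1, Ttr and Cyp2e1) and 1 called higher (Fgb). Other liver cells were present at lower levels. The 12 endothelial markers summed to between 282 and 430 CPM at 0 h and between 204 and 223 CPM at 48 h, and all 12 were called lower. The 12 Kupffer cell and macrophage markers summed to between 86.5 and 129 CPM at 0 h and between 127 and 155 CPM at 48 h, with 4 called higher and 0 called lower by edgeR, DESeq2 and limma-voom alike, and 0 lower at an unadjusted p under 0.05. Over all genes tested, 21.4% were called higher and 19.3% lower. For hepatocyte markers the shares were 10% higher and 40% lower, and for endothelial markers 0% and 100%. For Kupffer cell and macrophage markers they were 33.3% and 0%. In bulk samples, fewer cells of a type and less RNA per cell cannot be told apart.

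Of the 10 iron genes, 1 was called higher at 48 h (Tfrc), 3 were called lower (Hamp2, Tfr2 and Hfe) and 6 were not called, when p from the quasi-likelihood test of edgeR, adjusted over 17037 genes by the Benjamini-Hochberg method, was required to be under 0.05. Across all genes tested, 21.4% were called higher and 19.3% lower. The median log2 fold change of the 10 genes was -0.16, beside -0.00325 over all genes. The time points did not overlap for 3 of the 10 genes, all lower, and over all genes tested 27.8% were higher and 24.97% lower with no overlap. Hamp2 passed the filter on low counts only through its 0 h libraries. Changes and adjusted p values of single genes come from this edgeR test, and SE is their standard error on the log2 scale. The fit was repeated with 16 alternatives that changed the scaling, the filter, the tool, the model or the libraries.

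**Figure D1:**
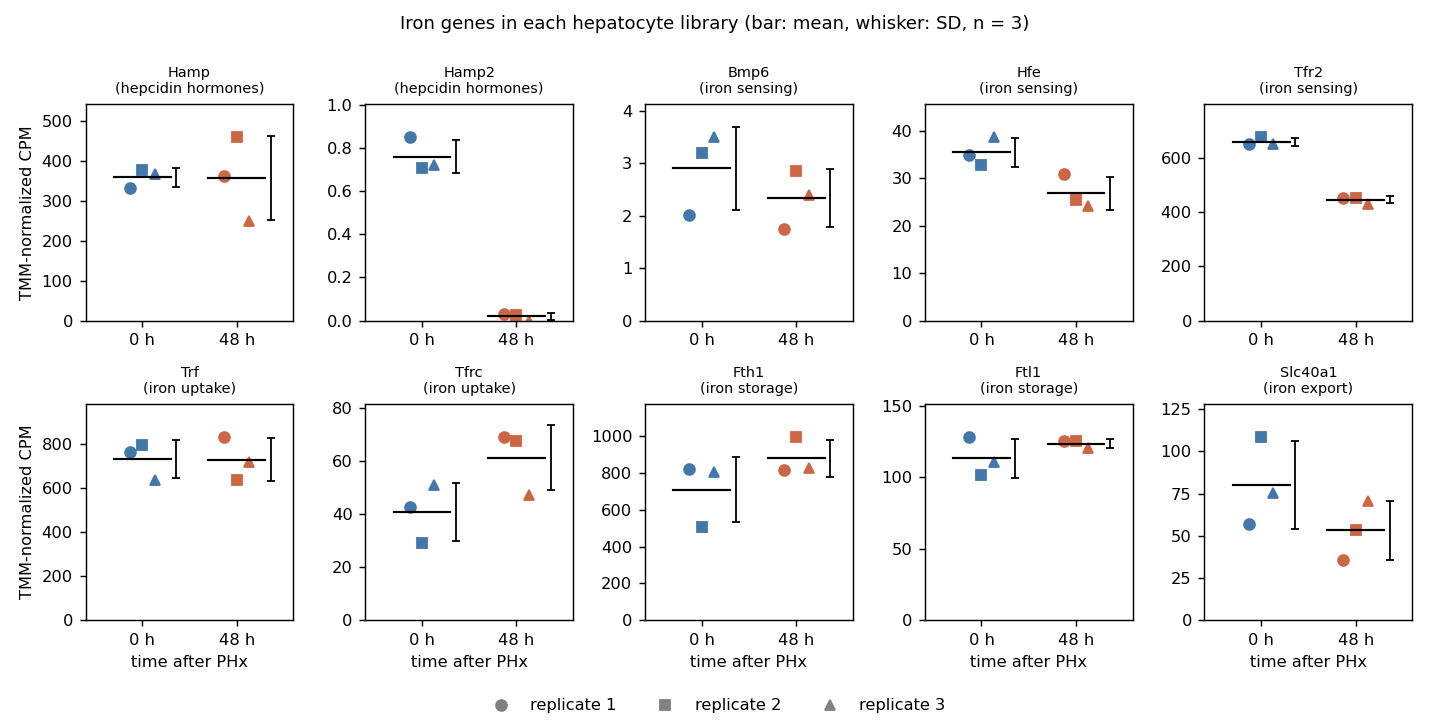
Level of each iron gene in each library, in CPM normalized by the trimmed mean of M values (TMM), on a linear axis that starts at 0. Points are the 3 libraries at 0 h (blue) and the 3 at 48 h (orange), marked by replicate number, with the mean as a bar and the SD as a whisker. The time points do not overlap for Hamp2, Hfe and Tfr2, and Hamp spans 249 to 459 CPM at 48 h.

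**Figure D2:**
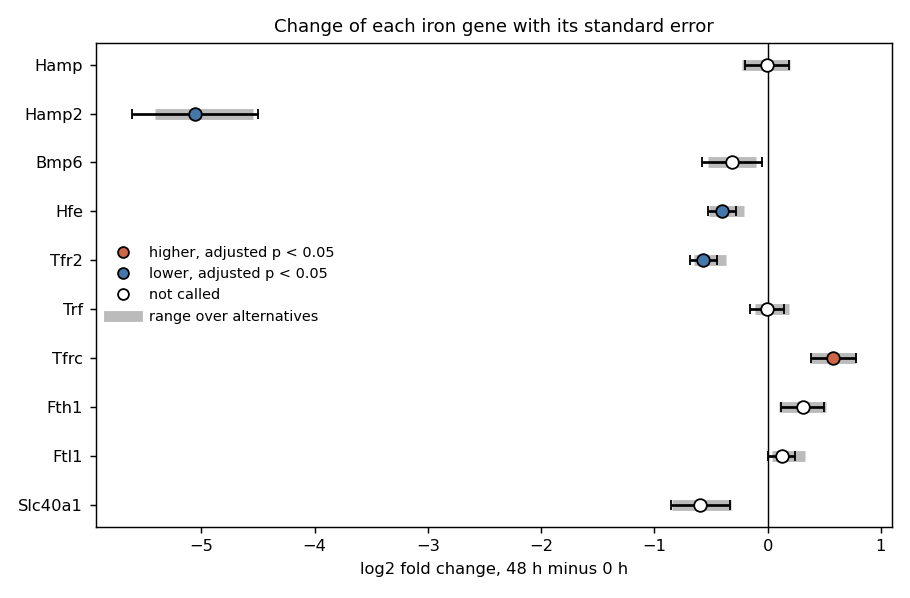
Log2 fold change of each iron gene, 48 h minus 0 h, with its standard error, and in grey the range over the alternative fits. Filled points are called at an adjusted p under 0.05. Hamp2 at -5.06 stands far to the left, and Hamp and Trf lie at -0.01 with ranges on both sides of 0.

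Per kilobase of exon, the level of Hamp was above that of every other gene of the group at both time points, with 874 ± 57.7 (SD, n = 3) CPM per kb at 0 h and 870 ± 256 (SD, n = 3) at 48 h. At 0 h, Trf at 220 ± 25.5 CPM per kb, Fth1 at 204 ± 51.1 and Tfr2 at 152 ± 3.32 followed. Neighbours in this order overlapped between libraries, so Trf and Fth1 were not separated, nor were Fth1 and Tfr2. Ftl1 came next with 84.7 ± 10.2 CPM per kb. Hfe at 9.93 ± 0.835 CPM per kb, Slc40a1 at 8.92 ± 2.90 and Tfrc at 6.62 ± 1.77 formed a lower tier, in which each gene overlapped the next. Hamp2 at 1.31 ± 0.134 CPM per kb and Bmp6 at 0.743 ± 0.201 were lowest. At 48 h, Tfrc had moved to the top of the lower tier with 9.90 ± 1.96 CPM per kb, still overlapping Hfe at 7.51 ± 0.983. The order depends on the length used. With the median length of transcripts that have a consensus coding sequence, Fth1 at 584 ± 146 CPM per kb was above Trf at 298 ± 34.4 at 0 h with no overlap, and Slc40a1 at 23.8 ± 7.73 was above Hfe at 16.2 ± 1.36 with overlap. With these lengths, the 48 h libraries of Hamp and Fth1 overlapped as well.

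The hepcidin genes are neighbours on chromosome 7. Hamp encodes the active iron hormone. Hamp2 is its duplicate, whose product is not known to carry the iron-regulating activity. In GRCm38, Hamp (ENSMUSG00000050440.8) lies at chr7:30942368-30944032 and Hamp2 (ENSMUSG00000056978.8) at chr7:30922372-30924681, both on the minus strand. The main transcripts were 92.4% identical over 420 aligned columns and the promoter windows 90.8% identical over 250 columns. The promoters are shown from RefSeq (GRCm38.p6), minus strand, 5′ to 3′, because they let the reader compare the sequence that precedes each gene. Capitals mark matches to GGCGCC, the core of the BMP-responsive element of hepcidin, and to TTCNNNGAA, the motif that STAT proteins bind. Both motifs read the same on both strands, and the matches do not overlap each other.
Hamp, chr7:30944033-30944279: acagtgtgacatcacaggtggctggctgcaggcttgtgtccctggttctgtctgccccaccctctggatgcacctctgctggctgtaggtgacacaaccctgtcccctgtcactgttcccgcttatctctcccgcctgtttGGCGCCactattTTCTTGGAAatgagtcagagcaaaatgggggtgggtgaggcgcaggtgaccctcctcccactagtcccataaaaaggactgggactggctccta
Hamp2, chr7:30924182-30924431: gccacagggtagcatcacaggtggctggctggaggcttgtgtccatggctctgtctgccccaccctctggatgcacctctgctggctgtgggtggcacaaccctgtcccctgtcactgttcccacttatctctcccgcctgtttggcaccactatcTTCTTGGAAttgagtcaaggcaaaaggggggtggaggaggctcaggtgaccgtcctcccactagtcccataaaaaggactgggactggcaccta
The Hamp window of 247 bases holds 1 match to each motif. The Hamp2 window of 250 bases holds the TTCNNNGAA match and 0 matches to GGCGCC. A longer annotated Hamp2 transcript starts upstream of this window, and the window holds none of its exons. Of 32851 mouse promoter windows of 250 bases, 9.59% held GGCGCC and 7.02% held TTCNNNGAA. These matches are letters in a window and do not show binding.

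Hamp mRNA did not differ detectably between the time points. Its level was 332, 376 and 368 CPM in the 0 h libraries and 362, 459 and 249 CPM in the 48 h libraries. The 48 h libraries enclosed the whole 0 h range, with replicate 2 above it and replicate 3 below it. The change was -0.01 on the log2 scale (SE 0.196, adjusted p = 0.981), and its sign was not settled, since it was -0.23 without 48 h replicate 2, 0.20 without 48 h replicate 3 and 0.19 with scaling by library size only.

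Hamp2, in contrast, was nearly lost at 48 h. It had 25, 22 and 24 counts in the 0 h libraries and 1, 1 and 0 counts in the 48 h libraries, so each 48 h library was under the floor of 3 counts. The corresponding levels were 0.851, 0.709 and 0.723 CPM at 0 h and 0.0297, 0.0280 and 0 CPM at 48 h. The change was -5.06 on the log2 scale (SE 0.558, adjusted p = 6.23e-05). Because 48 h holds so few counts, the fold is better read from the sums of 71 and 2 counts, which give a level 39.6-fold lower at 48 h with a 95% exact counting interval of 10.6 to 333. A gene with these counts passes the filter only because it is high at 0 h, so the adjusted p and the calls in other fits add nothing to the counts themselves. Without any 1 of the 0 h libraries, Hamp2 was not tested.

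Within each library, Hamp2 had 25.7, 18.9 and 19.7 counts per 10000 Hamp counts at 0 h and 0.819, 0.610 and 0 at 48 h. Hamp thus took 99.8% ± 0.0371 (SD, n = 3) of the summed hepcidin counts at 0 h, and the share was higher in each 48 h library than in any 0 h library (exact permutation test, two-sided, p = 0.1, the smallest value that 3 against 3 libraries allow). This test restates the Hamp2 counts given above and adds no support to them. The summed CPM of the pair differed by -0.05 on the log2 scale and overlapped between time points (exact permutation test, p = 0.8). Read sharing bears on the pair, because 16.6% of 50-base windows of Hamp and 3.87% of 75-base windows also occur in Hamp2, and 0 of 100-base windows do. The read length is not given in the sources used here. The split between the paralogs is uncertain to that degree. No value of Hamp2 at 48 h exceeded 1 count.

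**Figure D3:**
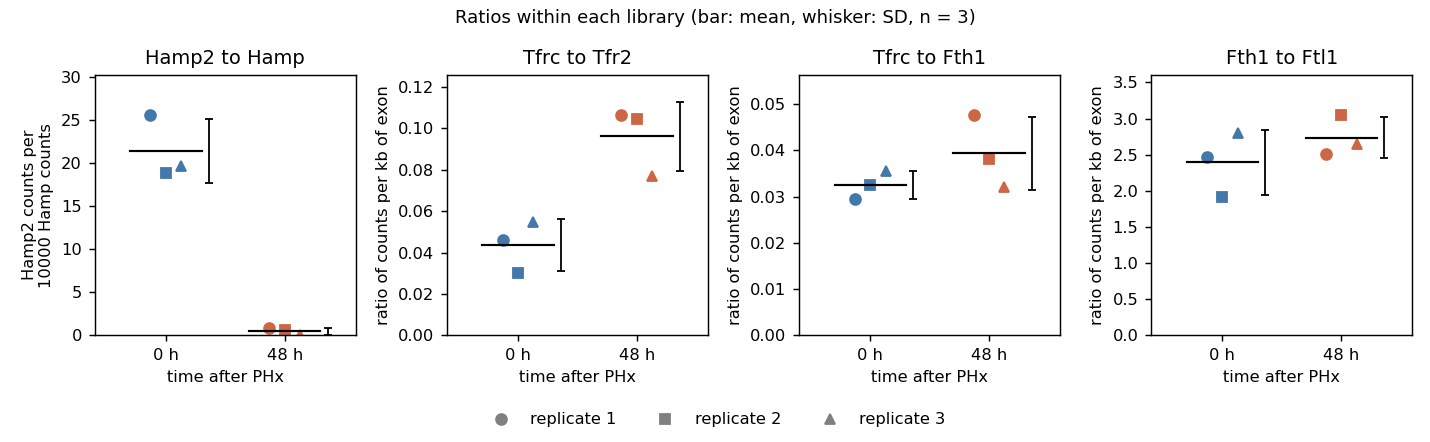
Ratios within each library, which do not depend on scaling between libraries: Hamp2 counts per 10000 Hamp counts, and the ratios of counts per kb of exon of Tfrc to Tfr2, Tfrc to Fth1 and Fth1 to Ftl1. Points are libraries marked by replicate number, bars are means and whiskers are SDs, and each axis starts at 0. The Hamp2 to Hamp and the Tfrc to Tfr2 ratios do not overlap between time points, and the other 2 ratios do.

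Of the sensing genes, Tfr2 and Hfe were called lower and Bmp6 was not called. Bmp6, the BMP ligand that signals liver iron load, was measured at a low level, with 2.01, 3.19 and 3.49 CPM at 0 h and 1.75, 2.85 and 2.40 CPM at 48 h. The time points overlapped, and the change was -0.31 on the log2 scale (SE 0.265, adjusted p = 0.378). It ranged from -0.52 to -0.15 when single libraries were left out and was -0.10 with scaling by library size only. The lowest 0 h value was in replicate 1, which also had the lowest sum of endothelial markers at 0 h, with 282 CPM against 430 and 428. The part of endothelial RNA in the Bmp6 level was not tested. In the annotation, 5.74% of Bmp6 exon bases lie opposite Txndc5, which had 5231 to 5900 counts at 0 h and 8212 to 9661 at 48 h. Bmp6 had 59 to 116 counts per library. The strand setting is not given in the sources used here, and the part of Txndc5 reads in the Bmp6 level was not tested.

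Tfr2, the hepatocyte receptor that takes part in sensing iron-loaded transferrin, fell. Its level was 650, 676 and 653 CPM at 0 h and 454, 452 and 431 CPM at 48 h. Every 48 h library was below every 0 h library, and the spread within each time point was small. The change was -0.57 on the log2 scale (SE 0.119, adjusted p = 0.0035), and the call held in all 16 alternative fits, with values from -0.65 to -0.37. Tfr2 transcripts at 48 h were thus at 0.675 times their 0 h level.

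Hfe, which encodes the MHC class I-like protein mutated in hereditary hemochromatosis, was also lower. It had 34.9, 32.8 and 38.7 CPM at 0 h and 30.8, 25.4 and 24.2 CPM at 48 h. The libraries did not overlap, with 48 h replicate 1 closest to the 0 h range. The change was -0.40 on the log2 scale (SE 0.122, adjusted p = 0.0228). This call was less firm than that of Tfr2, since it was lost without 0 h replicate 3 (-0.34, adjusted p = 0.080), without 48 h replicate 2 (-0.36, adjusted p = 0.0898), without 48 h replicate 3 (-0.33, adjusted p = 0.0863) and with scaling by library size only (-0.20, adjusted p = 0.156).

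Among the uptake genes, Trf, which encodes the plasma iron carrier transferrin, showed no detectable change. It had 765, 795 and 636 CPM at 0 h and 831, 638 and 719 CPM at 48 h, with overlapping libraries and a change of -0.01 on the log2 scale (SE 0.152, adjusted p = 0.982). The sign was not settled between alternatives, which ranged from -0.11 to 0.19. In the annotation, 63.5% of the exon bases of Trf are shared with a read-through gene on the same strand, Gm20425, which had 0 counts in every library, so reads there may have been left uncounted and the level of Trf may be understated.

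Tfrc, which encodes transferrin receptor 1 and carries transferrin-bound iron into the cell, rose. Its level was 42.8, 29.2 and 50.8 CPM at 0 h and 69.0, 67.4 and 47.3 CPM at 48 h. Replicates 1 and 2 at 48 h were above all 0 h libraries, whereas replicate 3 was below 0 h replicate 3. The change was 0.58 on the log2 scale (SE 0.201, adjusted p = 0.0407). The call was lost in 6 of the 16 alternative fits with the direction kept. It was 0.61 (adjusted p = 0.083) without 0 h replicate 1, 0.38 (adjusted p = 0.107) without 0 h replicate 2, 0.49 (adjusted p = 0.112) without 48 h replicate 1 and 0.51 (adjusted p = 0.12) without 48 h replicate 2. With upper-quartile scaling it was 0.50 (adjusted p = 0.0508), and the remaining fit that lost the call was the one with a replicate block.

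The proportions of the receptor pair were compared within libraries. Per kilobase of exon, the Tfrc to Tfr2 ratio was 0.0462, 0.0302 and 0.0545 in the 0 h libraries and 0.107, 0.105 and 0.0770 in the 48 h libraries. All 3 ratios at 48 h were above those at 0 h, and the mean log2 ratio was higher by 1.17, a 2.24-fold difference (exact permutation test, two-sided, p = 0.1, again the smallest possible, so that no threshold below it could be passed). Tfr2 transcripts remained more abundant per kb than Tfrc transcripts in every library.

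The ferritin genes encode the heavy chain, which oxidizes iron, and the light chain, which helps to form the mineral core. Fth1 had 818, 503 and 803 CPM at 0 h and 812, 993 and 825 CPM at 48 h, and Ftl1 had 128, 101 and 111 CPM at 0 h and 125, 126 and 120 CPM at 48 h. Both overlapped between time points, and 0 h replicate 2 was the lowest library for each, as it was for Tfrc. Reads outside genes took 32.7% of that library's assigned and unassigned total against 24.3% to 29.3% in the others, and whether this bears on the low values was not tested. Fth1 differed by 0.31 (SE 0.193, adjusted p = 0.232) and Ftl1 by 0.12 (SE 0.117, adjusted p = 0.430) on the log2 scale. Without 0 h replicate 2, the value for Fth1 was 0.10 (adjusted p = 0.603). With scaling by library size only, Ftl1 was called higher (0.33, adjusted p = 0.0485).

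The Fth1 to Ftl1 ratio per kb of exon was 2.46, 1.92 and 2.80 at 0 h and 2.50, 3.05 and 2.65 at 48 h, and the time points overlapped (difference of 0.21 on the log2 scale, exact permutation test, p = 0.4). Without 0 h replicate 2 that difference was 0.0553 and without 0 h replicate 3 it was 0.33. The Tfrc to Fth1 ratio likewise overlapped, with a difference of 0.26 (exact permutation test, p = 0.3) that ranged from 0.11 to 0.40 when single libraries were left out. Annotated pseudogenes of the ferritins, taken by gene name, summed to 21 to 56 counts for Fth1 and 35 to 75 counts for Ftl1 per library. Their identity to the ferritin genes was not measured. Since the line for multiply aligned reads holds 0, ferritin reads that also match a pseudogene may have been left uncounted. In the annotation, 26.5% of Ftl1 exon bases lie opposite Gm10252, which had 14 to 45 counts.

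Slc40a1, the gene of the exporter ferroportin, had 57.1, 108 and 75.2 CPM at 0 h and 35.8, 53.3 and 70.5 CPM at 48 h. Values varied about 2-fold within each time point, and the time points overlapped. The change was -0.59 on the log2 scale (SE 0.259, adjusted p = 0.0926), so the gene was not called even though its estimate was as large as that of Tfr2. Besides the replicate block, it was called lower without 0 h replicate 1 (-0.80, adjusted p = 0.0395), without 48 h replicate 3 (-0.85, adjusted p = 0.0279) and with no filter on low counts (-0.61, adjusted p = 0.0024). Without 0 h replicate 2 it was -0.32 (adjusted p = 0.33), and without 48 h replicate 1 it was -0.38 (adjusted p = 0.253). Slc40a1 is also a macrophage gene. The Kupffer cell and macrophage markers summed to 86.5, 128 and 129 CPM at 0 h and 127, 155 and 139 CPM at 48 h, and their part in the Slc40a1 level was not tested.

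The 4 genes whose mRNAs are controlled by iron regulatory proteins can be seen in their sequence. The iron-responsive element was searched as CNNNNNCAGTGN followed by 5 bases that pair with the 5 bases before the loop, G-T pairs allowed, on the transcript strand of GENCODE M21 (GRCm38). Capitals mark the CAGTGN loop. In the 5′ UTR, where the element acts on translation, Fth1, Ftl1 and Slc40a1 each held a match, and in the 3′ UTR, where it acts on mRNA stability, Tfrc held 4.
Fth1 5′ UTR, chr19:9982733-9982759, plus strand: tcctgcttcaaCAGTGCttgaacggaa
Ftl1 5′ UTR, chr7:45459780-45459806, minus strand: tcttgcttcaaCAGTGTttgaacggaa
Slc40a1 5′ UTR, chr1:45925466-45925492, minus strand: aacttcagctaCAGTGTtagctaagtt
Tfrc 3′ UTR, chr16:32631220-32631246, plus strand: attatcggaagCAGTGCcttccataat
Tfrc 3′ UTR, chr16:32631599-32631625, plus strand: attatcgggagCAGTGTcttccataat
Tfrc 3′ UTR, chr16:32631664-32631690, plus strand: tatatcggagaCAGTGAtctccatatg
Tfrc 3′ UTR, chr16:32631711-32631737, plus strand: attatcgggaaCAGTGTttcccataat
Over all genes, 0.148% of 20899 genes with a 5′ UTR and 0.614% of 21022 genes with a 3′ UTR held a match. Of the 4 genes of the group of 10 that hold a match, Tfrc was called higher and the 3 with a 5′ match were not called. RNA levels do not measure the translation that the 5′ elements control.

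The iron regulatory proteins themselves and the genes of ferritin turnover were not called. Of 6 genes tested by edgeR, 0 were called in either direction, beside 21.4% higher and 19.3% lower of all genes, and 0 had an unadjusted p under 0.05, whereas DESeq2 and limma-voom also called 0 and each had 1 gene lower at an unadjusted p under 0.05. The median log2 fold change was 0.02, with values from -0.30 to 0.22. Aco1, which encodes iron regulatory protein 1, had 256, 207 and 270 CPM at 0 h and 181, 218 and 195 CPM at 48 h (adjusted p = 0.106). Ireb2, the gene of iron regulatory protein 2, differed by -0.07 (adjusted p = 0.645). Ncoa4, the receptor that delivers ferritin to autophagy, differed by -0.05 (adjusted p = 0.789). These genes were chosen for mention after their values were seen.

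Genes of the BMP-SMAD route to hepcidin moved in both directions. Of 17 tested, 5 were called higher (29.4%) and 6 lower (35.3%), beside 21.4% and 19.3% of all genes, and 6 were not called. The median log2 fold change was -0.15. With scaling by library size only the median turned to 0.05, and 7 were called higher and 3 lower, when 5308 and 2110 of all 17037 genes were. Tmprss6, the serine protease that restrains hepcidin, had 552, 602 and 591 CPM at 0 h and 238, 245 and 255 CPM at 48 h. The time points were far apart, and the change was -1.24 on the log2 scale (SE 0.119, adjusted p = 2.40e-05). Bmp2, an endothelial BMP ligand that also maintains hepcidin, had 14.1 ± 4.63 (SD, n = 3) CPM at 0 h and 7.61 ± 0.677 (SD, n = 3) CPM at 48 h, and was lower by a log2 fold change of -0.89 (adjusted p = 0.0098). All 12 endothelial markers were lower in the same libraries, with a median log2 fold change of -0.83, and their part in the fall of Bmp2 was not tested.

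Id1, a target gene of BMP-SMAD signaling, rose from 0.477, 1.10 and 0.482 CPM to 3.33, 5.34 and 4.43 CPM, a log2 fold change of 2.67 (adjusted p = 0.000147). Fgl1, a secreted hepatocyte protein reported to restrain BMP signaling to hepcidin, rose from 52.2, 71.2 and 59.0 CPM to 721, 560 and 508 CPM, a log2 fold change of 3.29 (adjusted p = 4.23e-07). Other targets of the route did not follow Id1. Chosen after their values were seen, Smad6 was called lower (-0.47, adjusted p = 0.0353), Atoh8 was called lower (-0.63, adjusted p = 0.0011) and Smad7 was not called (-0.02, adjusted p = 0.942). The BMP coreceptor hemojuvelin, annotated as Hfe2 and also chosen after its values were seen, was not called either (-0.24, adjusted p = 0.239).

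The IL-6 and STAT3 route to hepcidin held 3 genes called higher and 0 lower among 6 tested (0 called lower by DESeq2 and limma-voom as well, with 0, 1 and 0 lower at an unadjusted p under 0.05 in edgeR, DESeq2 and limma-voom), beside 21.4% and 19.3% of all genes, with a median log2 fold change of 0.35. Socs3, the feedback inhibitor induced by STAT3, had 12.7, 9.83 and 10.8 CPM at 0 h and 53.4, 40.0 and 36.6 CPM at 48 h, a log2 fold change of 1.97 (adjusted p = 7.80e-06). Stat3 itself rose by 0.82 (adjusted p = 0.000677) and the IL-6 receptor gene Il6ra by 0.51 (adjusted p = 0.0212). Il6, chosen after its values were seen, was under the floor in every library and was not tested.

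**Figure D4:**
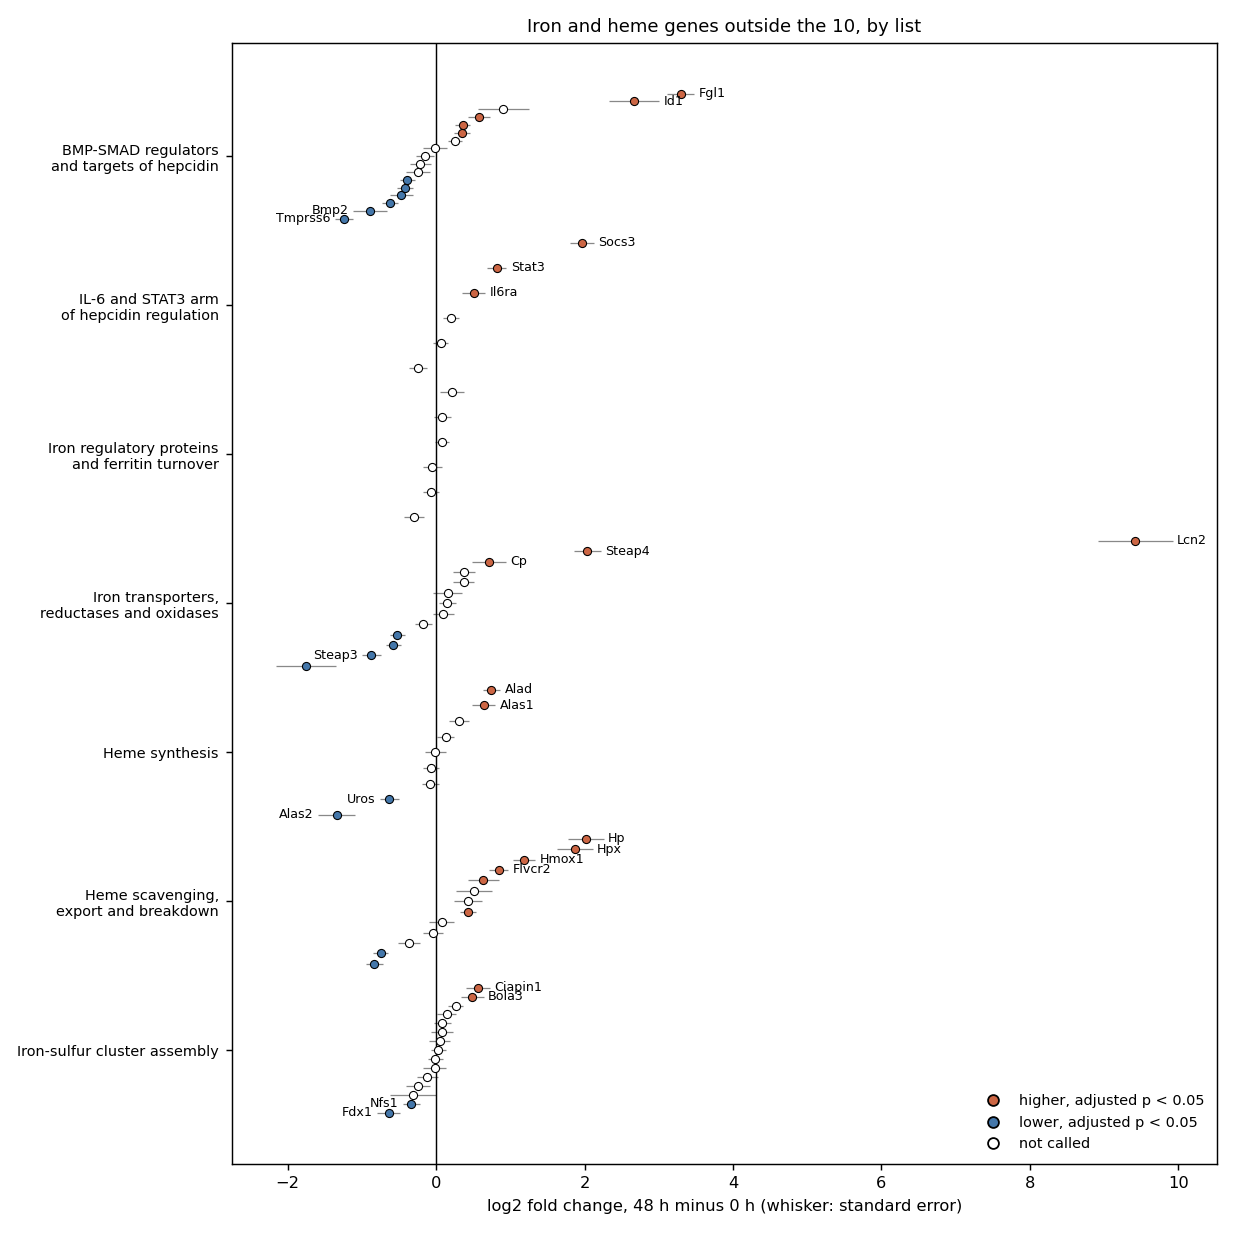
Log2 fold changes, 48 h minus 0 h, of the tested genes in 7 lists of iron and heme genes outside the group of 10, with standard errors. Filled points are called at an adjusted p under 0.05, and the vertical position within a list only orders the genes. The genes of ferritin turnover lie near 0, and Lcn2 at 9.42 lies far to the right of the rest.

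Among 13 iron transporters, reductases and oxidases, 3 were called higher (23.1%), 4 lower (30.8%) and 6 were not called, with a median log2 fold change of 0.15. These shares stand beside 21.4% higher and 19.3% lower of all genes, and with scaling by library size only 6 of the 13 were called higher, when 5308 of all 17037 genes were. Heph, chosen after its values were seen, is among the 4 called lower, with 11, 16 and 13 counts at 0 h and 4, 4 and 5 at 48 h. Like Hamp2, it passed the filter on low counts only through 0 h, so its call adds nothing to the counts themselves. Lcn2, which encodes the siderophore-binding protein lipocalin 2, had 4.39, 3.80 and 3.28 CPM at 0 h and 4498, 1903 and 1475 CPM at 48 h (log2 fold change 9.42, adjusted p = 3.24e-07). Lcn2 is also a neutrophil gene, and the 9 neutrophil markers summed to between 0.653 and 1.06 CPM at 48 h, against 0.0903 to 0.408 CPM at 0 h, with Ltf, Mpo and Retnlg at 0 in every library. No neutrophil marker passed the filter of the edgeR test, DESeq2 called 1 higher, and their part in the Lcn2 level was not tested. Of the metalloreductases, Steap4 rose (2.04, adjusted p = 1.53e-05) and Steap3, which serves the transferrin cycle, fell (-0.87, adjusted p = 0.00036). Chosen after their values were seen, Steap2 was not called (0.37, adjusted p = 0.0616) and Steap1 was not tested. Cp, the plasma ferroxidase ceruloplasmin, rose by 0.71 (adjusted p = 0.0312), from 1075, 1367 and 1344 CPM to 2889, 1587 and 1703 CPM. The zinc and iron importer gene Slc39a14, chosen after its values were seen, was not called (0.38, adjusted p = 0.0651). Slc39a8 (-0.58, adjusted p = 0.0013) and Mcoln1 (-0.52, adjusted p = 0.0024), chosen in the same way, were called lower.

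Of 13 genes that scavenge, export or break down heme, 6 were called higher (46.2%), 2 lower (15.4%) and 5 were not called, beside 21.4% and 19.3% of all genes, and the median log2 fold change was 0.43. Among the 6, Cd163, chosen after its values were seen, is also in the list of Kupffer cell and macrophage markers. Hp, which encodes the hemoglobin-binding protein haptoglobin, rose from 974, 1137 and 1004 CPM to 5909, 3668 and 3054 CPM, a log2 fold change of 2.02 (adjusted p = 9.95e-05). Hpx, the gene of the heme carrier hemopexin, rose by 1.87 (adjusted p = 0.000175). Hmox1, the inducible heme oxygenase that frees iron from heme, had 5.48, 6.38 and 7.86 CPM at 0 h and 14.5, 15.2 and 15.3 CPM at 48 h, a log2 fold change of 1.19 (adjusted p = 0.000155). The heme transporter gene Flvcr2 rose by 0.84 (adjusted p = 0.000549). Chosen after their values were seen, the 2 called lower were Slc46a1 (-0.83, adjusted p = 0.000308) and Abcg2 (-0.75, adjusted p = 0.000325). Hmox1 is also a Kupffer cell gene. In the same libraries, 4 of the 12 macrophage markers were called higher (Marco, Cd5l, Cd163 and Cd68), a share of 33.3% beside 21.4% of all genes. None (0) was called lower, and the 8 not called ranged from -0.34 (Adgre1) to 0.38 (Timd4) on the log2 scale. The part of macrophage RNA in the change of Hmox1 was not tested.

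Heme synthesis had 2 genes called higher, 2 lower and 5 not called among 9, with a median log2 fold change of -0.01. The shares of 22.2% in each direction are near those of all genes (21.4% higher and 19.3% lower). With scaling by library size only the median turned to 0.20, and 4 were called higher and 2 lower, when 5308 and 2110 of all 17037 genes were. Alas1, the rate-limiting enzyme in hepatocytes, rose by 0.64 (adjusted p = 0.0087), and Alad, the next enzyme, by 0.74 (adjusted p = 0.000666). Uros fell by 0.63 on the log2 scale (adjusted p = 0.0032). Alas2, the erythroid form, fell from 86.3, 55.6 and 79.6 CPM to 18.6, 28.6 and 40.2 CPM, a log2 fold change of -1.34 (adjusted p = 0.0018). The 9 other erythroid markers summed to between 2.93 and 3.98 CPM at 0 h and between 1.31 and 1.82 CPM at 48 h, and Hbb-bt was at 0 in every library. Most of that sum was Klf1, an erythroid transcription factor gene, which was called lower as well (-1.35, adjusted p = 0.002). The part of erythroid RNA in the Alas2 level was not tested. Of 15 iron-sulfur cluster genes tested, 2 were called higher, 2 lower and 11 were not called, with a median of 0.03. These shares of 13.3% in each direction stand beside 21.4% higher and 19.3% lower of all genes. DESeq2 called 1 lower, and with scaling by library size only 3 were called higher and 0 lower. Fdx1 fell by 0.64 (adjusted p = 0.0084) and Nfs1, the gene of the cysteine desulfurase, by 0.33 (adjusted p = 0.0374), whereas Ciapin1 rose by 0.56 (adjusted p = 0.0188) and Bola3 by 0.49 (adjusted p = 0.0259).

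Finally, the genes whose pattern over the 6 libraries was most like that of an iron gene were listed by Pearson's r of log2 CPM, among the 7563 genes that averaged 10 CPM or more, as a description. The 3 most like Hamp were Tmem201 (r = 0.969), Igfbp4 (r = 0.937) and Zfpl1 (r = 0.928), which shared its high value in 48 h replicate 2 and low value in 48 h replicate 3 within a much narrower range. Tmem201, for example, had 50.9, 54.2 and 52.6 CPM at 0 h and 53.8, 56.7 and 48.5 CPM at 48 h. The 3 most like Tfrc were Ndufc1 (r = 0.993), Ndufab1 (r = 0.988) and Mrpl17 (r = 0.988). Ndufc1 had 9.12, 6.80 and 9.85 CPM at 0 h and 13.7, 13.3 and 9.91 CPM at 48 h, with the same low library at 0 h. The 3 most like Slc40a1 were Nxpe2 (r = 0.994), Mertk (r = 0.989) and Ugt2b35 (r = 0.986). Among the 6 libraries, the points share depth and scaling, and no meaning beyond likeness was tested.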

How the data were processed

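Bulk RNA-Seq was analysed for 6 hepatocyte libraries, 3 per time point, grouped by the sample labels. The authors deposited unnormalized raw counts for each gene. The submitters' processing notes name FastQC 0.11.5, Trim Galore 0.6.4, STAR 2.6, HTSeq 0.12.4, DESeq2 and the mm10 build, and the strand setting and read length are not given in the sources used here. The lines for unaligned and multiply aligned reads hold 0. Gene identifiers were matched to GENCODE M21 (GRCm38), and 24.3% to 32.7% of the counted total fell outside genes.

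The 10 iron genes and all lists were chosen with earlier results of these data known. Genes that reached 10 counts in 3 or more libraries were tested with edgeR 4.0.16 (R 4.3.3), using TMM scaling, the quasi-likelihood test and Benjamini-Hochberg adjustment over 17037 genes, with time as the only term. P values measure the spread between mice. From each pathway list, the text names up to 4 called genes with the largest absolute change and a mean of at least 1 CPM, and other genes are marked as chosen after their values were seen. Within-library ratios were compared by two-sided exact permutation tests in scipy 1.17.1. In 3 simulations with known changes for this comparison, a mean of 195 of 16696 genes were changed. There, 61.3% of 2-fold and 95.9% of 4-fold changes were recovered, and 9.81% of calls were false, above the nominal 0.05. The data hold far more calls (21.4% higher and 19.3% lower), so these rates need not carry over. The alternatives were DESeq2 1.42.0, limma-voom (limma 3.58.1), other scalings and count filters, the replicate block and leaving out each library. The erythroid sum without Alas2 and the ratio of summed Hamp2 counts were chosen after seeing the data. Promoters are from RefSeq and UTRs from GENCODE. The hepcidin proteins were not analysed here. A single gene was left out of the lists and is not reported here.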

Additional observations from a re-analysis of the deposited data

How the results depend on the processing

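Tfr2 was called lower in all 16 alternative fits. Bmp6 and Fth1, not called in the main fit, were called in none of the 16 and kept their directions. Fth1 came closest with scaling by library size only (adjusted p = 0.0518). Hamp2 was tested in 12, and since it passes the filter only through 0 h these show nothing of its stability. With scaling by library size only, the median of all genes rose to 0.20, the iron genes shifted with it, and 5308 of all genes were called higher and 2110 lower. Under that scaling Hamp was 0.19, Trf 0.19 and the summed Hamp and Hamp2 CPM 0.15 on the log2 scale, 2 iron genes were called higher, 3 genes of the BMP-SMAD list were called lower and 7 higher, 6 transporters and 4 heme synthesis genes were called higher and 0 iron-sulfur genes were called lower. When each library was left out in turn, Hamp ranged from -0.23 to 0.20, Trf from -0.11 to 0.0841 and the summed pair from -0.26 to 0.19, and 0 to 1 iron genes were called higher and 1 to 3 lower. No iron gene was called higher (0) with upper-quartile scaling, with the replicate block or when an absolute change of 1 on the log2 scale was also required, under which 1 was lower. Deviations from the mean of the time point correlated between same-numbered libraries at 0.0335, -0.0674 and -0.138. With 3 libraries per time point, these values cannot show whether same-numbered libraries shared a batch, and the labels give only the number. With the replicate block, 3237 genes were called higher and 2884 lower, Tfrc was 0.60 (adjusted p = 0.0566) and Slc40a1 -0.60 (adjusted p = 0.0251), and 4 iron genes were lower. The causes of these changes were not tested, apart from the shift that scaling makes by construction. Depth limits Hamp2 at 48 h and the genes under the floor.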
